A study of Arabidopsis thaliana with 6 samples.

Results

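Unannotated splice junctions whose start and end both fall inside a single annotated exon bin were examined in RNA-seq of Arabidopsis thaliana seedlings. They are called exitron-like junctions here. A junction was included when the deposited junction table did not match it to an annotated junction, when both of its ends lay strictly within 1 bin of the deposited exon table of the same gene, and when it had 12 or more counts over the 6 libraries. This gave 592 junctions in 460 genes and 481 exon bins, out of 186694 junctions in the table, 75737 of them unannotated. They were thus selected on their total count over all libraries, which is given as a description and supports nothing. Before the minimum count was applied, 6798 unannotated junctions lay inside 1 exon bin, with a median of 2 counts, and 3264 of them rested on 1 count.

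The wild type was the Col-0 accession (Col, 3 libraries), and the other genotype was a prmt5 mutant (3 libraries) whose allele and background line the labels do not name. All plants were grown under continuous white light at 22 °C and harvested whole at 9 days. Plants moved to the cold, which the series text mentions, were not analysed here. Nothing in the labels says whether libraries came from separate cultures, so p-values measure the spread between these libraries, which may be technical.

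Exitrons are stretches within protein-coding exons that have splice sites at their ends and can be removed like introns or kept as coding sequence. When such a stretch has a length divisible by 3 and holds no stop codon, both forms of the mRNA can keep the reading frame, whereas other lengths shift it. PRMT5 is a protein arginine methyltransferase that methylates core proteins of the spliceosome, and its mutation in Arabidopsis is known for changed use of splice sites. The spliceosome recognises GT at the 5' end and AG at the 3' end of nearly all introns.

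Gene counts ran from 38564256 to 75461631 per library and junction counts from 12590920 to 25006774. The Col libraries together held 53.1% of all junction counts. RBCS1A, a gene of leaf photosynthesis, stood between 13438 and 15241 counts per 1000000 gene counts (CPM) in every library, and PYK10, a beta-glucosidase gene of roots, between 1894 and 2368. CAB1, another gene of leaf photosynthesis, had 16256, 11832 and 14095 CPM in Col and 10064, 10430 and 10374 in prmt5, so every Col library was higher. Its part in the results on junctions was not tested. PRMT5 was read at 28.7, 29.1 and 29.8 CPM in Col and at 36.1, 29.1 and 34.0 in prmt5. An annotated junction of PRMT5, singled out after its values were seen, had 104, 83 and 116 counts in Col and 5, 3 and 17 in prmt5, and an unannotated junction that shares one of its ends had 0, 0 and 0 against 11, 10 and 27. The genotypes were separated at that site in all 6 libraries.

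The sequences on which the results turn are shown first. Each was read from the TAIR10.1 reference on the strand of the gene, 5' to 3', with 15 exon bases on each side in lower case and the stretch that the junction removes in capitals. AT5G63370 (chr5:25385063-25385165, minus strand), RLP47 (chr4:8006938-8007071, minus), STOP1 (chr1:12551405-12551550, plus) and AT1G77800 (chr1:29255707-29255817, plus) hold junctions that fell in prmt5.
AT5G63370: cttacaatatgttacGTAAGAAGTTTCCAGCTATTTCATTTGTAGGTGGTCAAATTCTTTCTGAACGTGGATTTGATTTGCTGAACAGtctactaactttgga
RLP47: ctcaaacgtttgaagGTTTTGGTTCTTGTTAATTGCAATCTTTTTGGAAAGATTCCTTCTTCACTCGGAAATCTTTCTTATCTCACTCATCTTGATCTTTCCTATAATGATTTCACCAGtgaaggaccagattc
STOP1: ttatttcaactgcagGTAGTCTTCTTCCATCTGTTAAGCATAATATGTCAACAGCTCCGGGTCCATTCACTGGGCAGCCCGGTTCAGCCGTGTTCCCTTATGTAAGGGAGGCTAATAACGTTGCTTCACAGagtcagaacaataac
AT1G77800: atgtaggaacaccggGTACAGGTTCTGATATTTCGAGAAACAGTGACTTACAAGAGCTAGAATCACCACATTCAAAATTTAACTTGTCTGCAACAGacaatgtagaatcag

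LPP3 (chr3:553841-553984, plus), ENODL2 (chr4:13751308-13751416, minus) and FRO7 (chr5:20206489-20206613, minus) hold the 3 junctions that rose in prmt5.
LPP3: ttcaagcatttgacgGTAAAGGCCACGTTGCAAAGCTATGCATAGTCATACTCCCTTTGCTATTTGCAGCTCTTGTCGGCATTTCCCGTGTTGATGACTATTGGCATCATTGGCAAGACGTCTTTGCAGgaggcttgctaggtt
ENODL2: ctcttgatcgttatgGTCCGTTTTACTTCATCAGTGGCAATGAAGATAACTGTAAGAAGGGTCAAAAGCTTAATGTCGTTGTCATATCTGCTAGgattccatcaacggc
FRO7: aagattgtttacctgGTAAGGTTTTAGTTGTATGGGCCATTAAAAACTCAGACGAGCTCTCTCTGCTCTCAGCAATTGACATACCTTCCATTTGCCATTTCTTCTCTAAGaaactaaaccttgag

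A further pair comes from genes for cell wall proteins built of repeats. AT2G43150 (chr2:17946254-17946364, plus) holds one of the most counted junctions, with CT and AC at its ends, and HRGP1 (chr3:20207246-20207410, plus) one with GT and AG. In both, the bases after the removed stretch nearly repeat it: 46 of 48 bases are equal in AT2G43150 and 70 of 75 in HRGP1.
AT2G43150: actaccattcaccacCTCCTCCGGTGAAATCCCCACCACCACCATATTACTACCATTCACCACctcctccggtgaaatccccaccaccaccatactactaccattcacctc
HRGP1: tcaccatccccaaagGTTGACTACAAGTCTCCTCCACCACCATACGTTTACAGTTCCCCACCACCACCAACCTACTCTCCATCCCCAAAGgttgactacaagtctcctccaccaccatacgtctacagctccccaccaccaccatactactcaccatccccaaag

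The exitron-like junctions fell into classes by the bases at their ends. On the strand of the gene, 454 of the 592 (76.7%) had GT and AG, 133 (22.5%) CT and AC, 4 GC and AG, and 1 AT and AC. CT-AC is what GT-AG reads as on the opposite strand. Among 103536 annotated junctions with 12 or more counts 98.6% had GT-AG and 0.285% CT-AC, and among 7587 other unannotated junctions in genes 95.8% and 3.45%. Of the 133 CT-AC junctions, 40 lay in genes that the tables mark as overlapping another gene, and 24 of those 40 matched an intron of the newer RefSeq annotation. No source states that strand was used in counting, and so the 112 exitron-like junctions in overlapping genes cannot be assigned to one of the genes.

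Another block of the CT-AC class lay in genes of repeats. The proline-rich extensin-like gene AT2G43150, the extensin gene EXT3 and AT2G10940, a gene of the lipid-transfer protein superfamily, held 14, 13 and 9 exitron-like junctions. All 36 had CT-AC ends and a length divisible by 3. In 27 junctions, 24 of them CT-AC, at least 10 bases at one end of the removed stretch were repeated at its other end, and all 27 had a length divisible by 3. The 60 bases made by joining the flanks were searched in the whole genome, the gene of the junction included. They were found in 1 piece, with at least 54 aligned bases and at most 2 mismatches, for 34 CT-AC and 2 GT-AG junctions in 10 genes. Such reads can be placed without a junction. Counts of these junctions are therefore uncertain.

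By position, 351 of the 592 lay within RefSeq coding sequence, 139 in untranslated regions (56 of them 5' and 80 of them 3'), 41 across the edge of a coding region, 43 in exons without a coding region, and 18 matched no RefSeq exon. Among the GT-AG junctions, 248 in 219 genes were coding and 126 lay in untranslated regions. The deposited annotation and RefSeq differ in age: 205 of the 592, and 177 of the 454 with GT-AG, are introns of RefSeq transcripts. Most genes (384) held 1 exitron-like junction, 53 held 2 and 23 held 3 or more. RPS6, a disease resistance gene of the TIR-NBS-LRR class, held 6 with GT-AG ends, 3 of them coding. They had 13 to 122 counts over the 6 libraries and edgeR adjusted p of 0.390 to 0.997 in the test described below.

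The removed stretches were short and close to annotated introns in length. Both ends had to lie inside 1 exon bin, which caps the length by rule, so the lengths are given as a description. The median was 96 bases over all 592 (quartiles 82 and 127), and 94.5 for GT-AG, against 100 (quartiles 86 and 171) for annotated junctions and 122 for other unannotated ones. The shortest GT-AG stretch had 21 bases, in the dehydrin gene AT1G54410, and the longest 1188, in the non-coding gene AT1G78865. The AT1G54410 junction had 7, 3 and 10 counts in Col and 10, 6 and 10 in prmt5. The AT1G78865 junction had 10, 8 and 8 against 8, 5 and 9. Neither passed the test (edgeR adjusted p 0.986 and 0.994). Coding GT-AG stretches had a median GC content of 40.4%, against 32.9% for the stretches removed by annotated junctions.

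Lengths divisible by 3 made up 37.7% of the exitron-like junctions (223 of 592), against 33.0% of annotated and 34.3% of other unannotated junctions. Within the GT-AG class it was 32.2% and within the CT-AC class 57.9%. In coding sequence, 71 of 100 CT-AC junctions had a length divisible by 3, or 35 of 64 without the 3 repeat genes named above. Of the coding GT-AG junctions 83 of 248 (33.5%) did, and of those in untranslated regions 33 of 126 (26.2%). The coding GT-AG class itself was split: 38 of the 63 that are RefSeq introns (60.3%) had a length divisible by 3, and 45 of the other 185 (24.3%). These shares are given as descriptions of the sets, since junctions of 1 gene often share an end (120 of the 592 do) and are not independent.

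**Figure D1:**
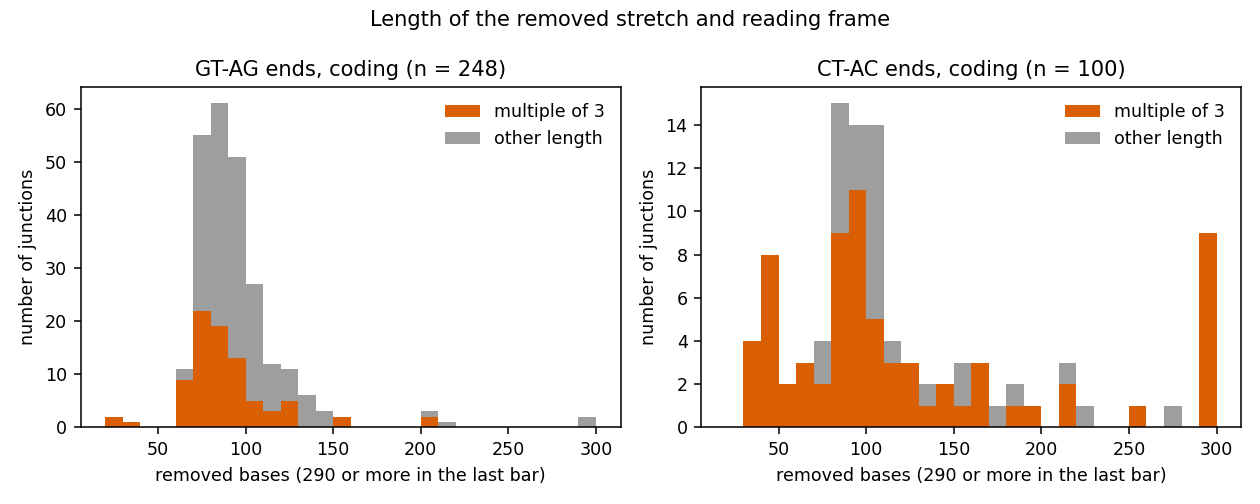
Number of exitron-like junctions in coding sequence by the length of the removed stretch in bases (x axis, bins of 10 bases), for GT-AG ends on the left (n = 248) and CT-AC ends on the right (n = 100), with lengths divisible by 3 in orange and others in grey. The GT-AG junctions gather around their median of 88.5 bases with 83 in orange, and the CT-AC junctions spread more widely with 71 in orange.

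Removal of the 83 coding GT-AG stretches of length divisible by 3 would take out 7 to 69 codons (median 28), and no removal created a stop codon. Of the 165 others, 163 would lead to an early stop in the RefSeq reading frame and 2 would lose the frame without meeting one within the coding region. In 134 of the 163 the early stop lay more than 50 bases before the last exon junction, a position that can mark mRNAs for decay in plants. In 29 it did not.

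Usage was low for most junctions. Set against the median count of the annotated junctions of its gene, the GT-AG junction count had a median of 7.15% (quartiles 2.55% and 23.4%) over 447 junctions with such a value. It reached 10% in 190 of them and 50% in 64. Introns of RefSeq transcripts stood at a median of 15.2% (n = 174), and the others at 3.72% (n = 273). The median was 6.61% for coding lengths divisible by 3, 4.73% for other coding lengths and 8.11% in untranslated regions. It was 8.92% in Col and 4.99% in prmt5. All libraries together chose these junctions, and the Col libraries hold more of the reads. The part of this in these medians was not tested.

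Over all exitron-like junctions, the genotypes did not separate. Their share of all junction counts was 0.0758%, 0.0738% and 0.0671% in Col and 0.0666%, 0.0678% and 0.0789% in prmt5 (exact permutation test, two-sided, p = 0.9, adjusted over 4 values 1). Their summed counts as a percent of the summed counts of the exon bins that hold them were 1.47%, 1.49% and 1.38% against 1.41%, 1.43% and 1.64% (exact permutation p = 0.8, adjusted 1). The groups overlapped in both measures. AT2G43150 alone supplied most of these counts, with 14 junctions that together made 21.5%, 19.3% and 21.5% of its bin counts in Col and 20.8%, 20.4% and 20.9% in prmt5. Leaving this gene out was an alternative chosen after seeing the data. The other 578 had a share of 0.0241%, 0.0246% and 0.0233% in Col and 0.0208%, 0.0204% and 0.0201% in prmt5. Their pooled ratio was 0.491%, 0.525% and 0.502% against 0.460%, 0.452% and 0.443%. These groups did not overlap in either measure. With 3 libraries against 3, the exact permutation test cannot give a p below 0.1.

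The GT-AG class gave separate groups. Its junctions had 197, 199 and 187 counts per 1000000 junction counts in Col and 164, 162 and 159 in prmt5, and their pooled ratio to the bins was 0.576%, 0.606% and 0.561% against 0.512%, 0.506% and 0.507%. Every Col library was above every prmt5 library in both measures. In whole seedlings, fewer cells that use a junction and less use per cell cannot be told apart. Split by the newer annotation, the 277 that are not RefSeq introns had 0.426%, 0.428% and 0.413% in Col and 0.352%, 0.357% and 0.349% in prmt5. The 177 RefSeq introns had 0.852%, 1.02% and 0.862% against 0.956%, 0.903% and 0.954%, and these groups overlapped. As a share of all junction counts they did not: the RefSeq introns took 0.00957%, 0.00944% and 0.00879% in Col and 0.00762%, 0.00738% and 0.00734% in prmt5, and the others 0.0102%, 0.0104% and 0.00993% against 0.00880%, 0.00881% and 0.00856%. The difference between these subsets was not tested.

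The coding GT-AG junctions were also compared by reading frame. Those with a length not divisible by 3 (n = 165) had a pooled ratio of 0.487%, 0.508% and 0.468% in Col and 0.412%, 0.397% and 0.384% in prmt5, so prmt5 stood at 0.816 of Col with no overlap (0.488% ± 0.020 against 0.398% ± 0.014, SD, n = 3; exact permutation p = 0.1, adjusted over 4 values 0.4). Those with a length divisible by 3 (n = 83) had 0.297%, 0.267% and 0.273% against 0.236%, 0.297% and 0.313% (0.279% ± 0.016 against 0.282% ± 0.041; p = 1, adjusted 1). There the prmt5 libraries spanned the Col libraries. The 83 include the HRGP1 junction of a repeat gene shown above, with 0 counts in Col and 0, 91 and 157 in prmt5. The pooled ratio without it was not computed. Junction by junction the frames were close, with 77.6% of log2 changes below 0 for other lengths and 72.3% for lengths divisible by 3. Neither difference passed the threshold of 0.05, which this design cannot reach, and the difference between the frames was not tested.

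The junctions just below the minimum count were compared as a description. The 50 with 11 counts in all had a median length of 93.5 bases, 39 with GT-AG ends and 14 with a length divisible by 3, and the 34 with 12 counts had a median of 90.5 bases, 29 and 12. The 11-count junctions had 346 counts in Col and 204 in prmt5, and the 12-count junctions 251 and 157. All 4859 GT-AG junctions inside 1 exon bin that had 1 to 11 counts, and so were left out, summed to 127, 124 and 121 counts per 1000000 junction counts in Col and to 72.8, 74.1 and 66.5 in prmt5. Col libraries were all higher, and Col held 66.6% of these counts. The 49670 other unannotated GT-AG junctions in genes with 1 to 11 counts summed to 1113, 1190 and 1098 such counts in Col and 1146, 1082 and 1111 in prmt5, with groups that overlapped. The 7266 rare annotated ones summed to 265, 295 and 256 against 296, 276 and 280, again overlapping. The rare junctions that lie inside 1 exon were lower in prmt5, and the rare junctions elsewhere in genes overlapped between genotypes.

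**Figure D2:**
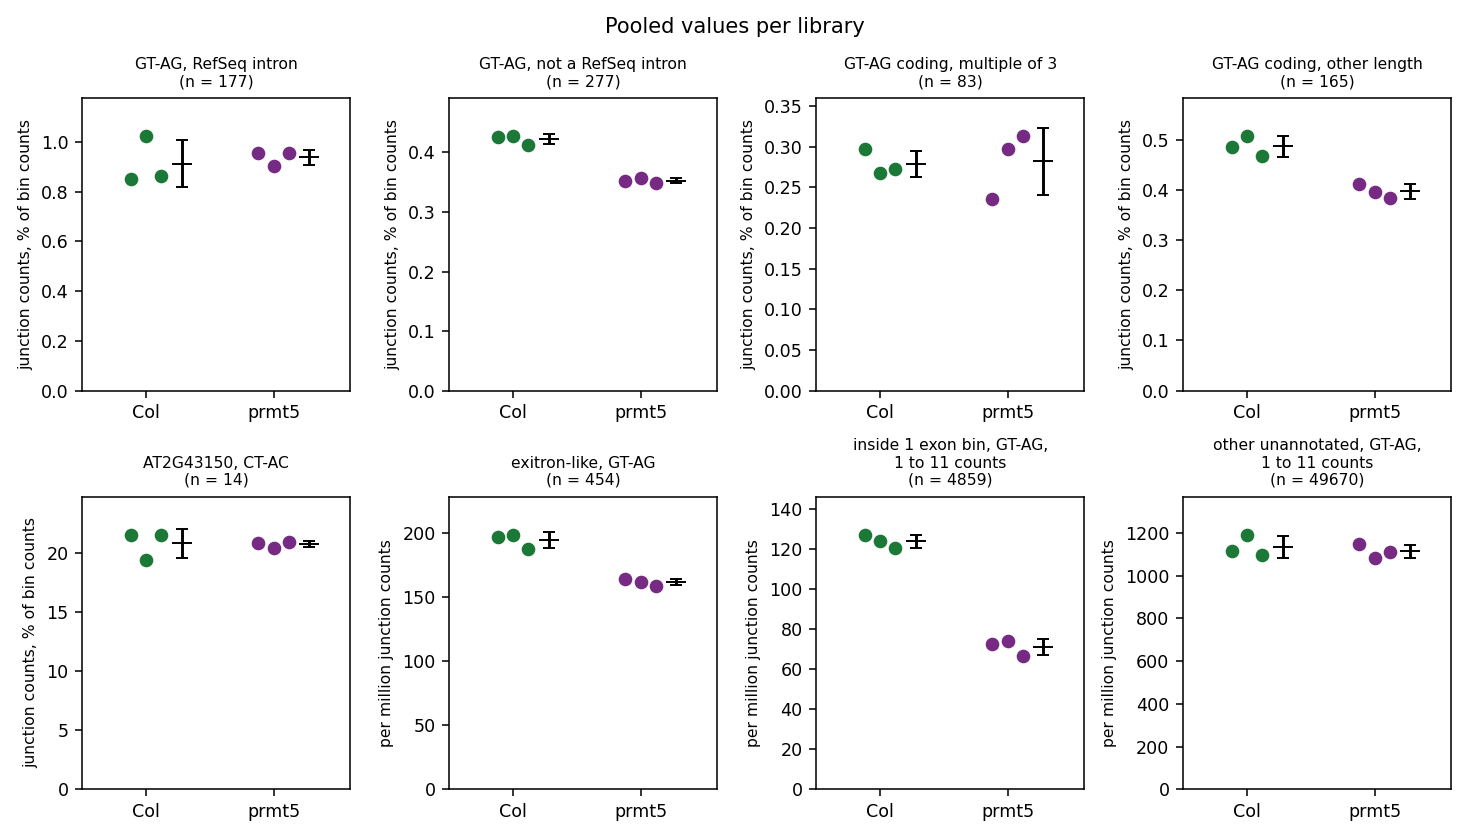
Pooled values per library (points, Col green, prmt5 purple) with mean ± SD (n = 3) beside them. The first 5 panels give junction counts as a percent of exon bin counts for 4 classes of GT-AG exitron-like junctions and for AT2G43150, and the last 3 give counts per 1000000 junction counts for GT-AG exitron-like junctions, for the 4859 rarer GT-AG junctions inside 1 exon bin and for 49670 other rare unannotated GT-AG junctions. The largest gap is that of the rarer junctions inside 1 exon bin, at 121 to 127 in Col and 66.5 to 74.1 in prmt5.

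Single junctions were tested in a model of all 111715 junctions in genes with 12 or more counts, in which the count of the exon bin, or of the gene for junctions outside a single bin, set the level (edgeR quasi-likelihood test, two-sided, Benjamini-Hochberg adjustment over all junctions, threshold 0.05). Of the 592 exitron-like junctions 23 passed (3.89%) in 22 genes, against 1.14% of all junctions tested. In 20 the ratio was lower in prmt5 and in 3 higher, against 0.964% and 0.175% of all junctions tested. Of the other unannotated junctions 3.56% passed, 133 higher and 137 lower. The median log2 change was -0.52 over the exitron-like junctions, with 74.5% below 0, and -0.04 over all junctions tested, with 58.2% below 0. Among junctions with 12 to 30 counts the medians were -0.73 for exitron-like, -0.13 for other unannotated and -0.12 for annotated junctions.

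The count of 23 depended on single libraries. It was 9 without Col replicate 3, 9 without prmt5 replicate 3, 12 without Col replicate 1 and 12 without prmt5 replicate 2, and 8, none of them higher, in DESeq2. Over all 111715 junctions tested, 1273 passed in the main fit and 765, 813, 905, 858 and 777 in these settings. By class, 22 of 454 GT-AG junctions passed (median log2 change -0.63) and 1 of 133 CT-AC junctions (median -0.11). RefSeq introns and others had the same median of -0.63, with 8 of 177 and 14 of 277 passing. In coding sequence 3 of 83 with a length divisible by 3 passed (median -0.51) and 9 of 165 others (median -0.56). In untranslated regions 2 of 33 (median -1.03) and 5 of 93 (median -0.78) passed. The minimum count was set on the total over both genotypes, and its part in these changes was not tested. Of the exitron-like junctions 12 had 0 counts in every prmt5 library and 4 in every Col library. The share of such junctions over all junctions tested was not computed.

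**Figure D3:**
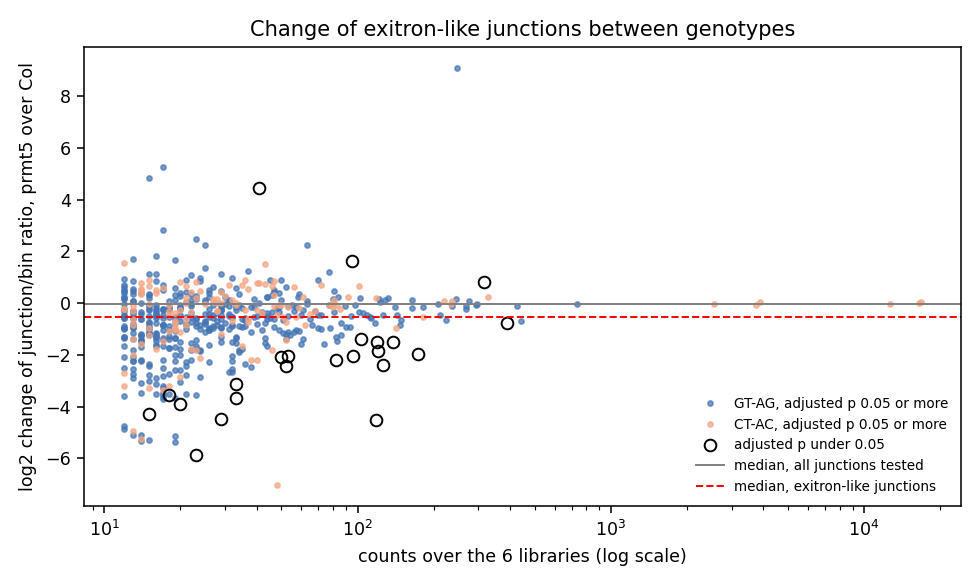
Log2 change of the ratio of junction to bin count (prmt5 over Col, y axis) against the count over the 6 libraries (x axis, log scale) for the GT-AG and CT-AC exitron-like junctions, with black circles for the 23 with adjusted p under 0.05. Most points lie below 0, with a median of -0.52 against -0.04 over all junctions tested, and the junctions with the highest counts, those of AT2G43150, lie at 0.

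The junction with the smallest p lay in AT1G22630, which encodes an SSUH2-like protein. It removes 94 bases across an edge of the coding region (chromosome 1, 8003418 to 8003513) and had 59, 20 and 35 counts in Col and 1, 3 and 0 in prmt5. Its bin had 1978, 1408 and 2402 counts against 1591, 1394 and 2081, so the ratio went from 1.95% ± 0.89 to 0.093% ± 0.111 (SD, n = 3) and all Col libraries were higher. The log2 change was -4.52 (SE 0.56, edgeR adjusted p 1.04e-05). It passed under every setting run and without any 1 library, as did the junctions of AT5G63370 and ATH1.

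In AT5G63370, a protein kinase gene, a 73-base stretch of the coding sequence fell (chromosome 5, 25385077 to 25385151). It had 59, 36 and 47 counts in Col and 15, 7 and 10 in prmt5, or 1.12% ± 0.18 and 0.281% ± 0.103 of its bin. All Col libraries were higher, and the log2 change was -1.98 (SE 0.29, edgeR adjusted p 8.11e-05). The bin is 2423 bases long and counts reads over all of them, so the ratio is no rate of splicing. Against the median count of the annotated junctions of its gene, the junction stood at 198% ± 51 in Col and 119% ± 45 in prmt5. The stretch is an intron of RefSeq transcripts, and its removal would place a stop at codon 550, where the full reading frame has 613 codons. A junction that shares one end and removes 78 bases, a multiple of 3, had 13, 4 and 10 counts against 5, 1 and 5 and did not pass (adjusted p 0.721).

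ATH1 encodes a homeobox transcription factor of the shoot apex. The 145-base stretch in its 5' untranslated region (chromosome 4, 15917592 to 15917738) had 23, 25 and 56 counts in Col and 8, 5 and 9 in prmt5. As a ratio to the bin it fell from 10.2% ± 3.9 to 1.82% ± 0.33, with no overlap (log2 change -2.40, SE 0.36, edgeR adjusted p 0.000112).

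RLP47, a gene of the receptor-like proteins of the cell surface, differed in the bin more than in the junction. The junction, a 104-base RefSeq intron in the coding sequence, had 22, 20 and 36 counts in Col and 19, 10 and 13 in prmt5. Its bin had 201, 119 and 234 counts against 371, 303 and 420, all prmt5 libraries being higher. The ratio fell from 14.4% ± 3.1 to 3.84% ± 1.12 (log2 change -1.87, SE 0.31, edgeR adjusted p 0.000483), but with the library size in place of the bin count the adjusted p was 0.140. The call therefore concerns the ratio.

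STOP1 encodes a zinc finger transcription factor known for tolerance of acid soil and aluminium. Its 116-base coding stretch, a RefSeq intron, had 34, 16 and 29 counts in Col and 5, 7 and 5 in prmt5 in bins of 1669 to 2953 counts. The ratio fell from 1.06% ± 0.20 to 0.276% ± 0.126 without overlap (log2 change -2.03, SE 0.38, edgeR adjusted p 0.00226), and the adjusted p was 0.0529 without prmt5 replicate 3. Against the median annotated junction of the gene, the junction stood at 46.2% ± 4.2 in Col and 11.9% ± 6.3 in prmt5. Removal would place a stop at codon 144 of 500. The gene overlaps AT1G34380.

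AT1G77800 encodes a PHD finger protein, a type of domain that reads histone tails. Its 81-base coding stretch, also a RefSeq intron, keeps the frame and takes out 27 of 1426 codons. It had 21, 14 and 32 counts in Col and 1, 4 and 10 in prmt5, and the ratio fell from 6.02% ± 1.78 to 1.13% ± 0.82 (log2 change -2.20, SE 0.44, edgeR adjusted p 0.00502, and 0.0845 without Col replicate 3). All Col ratios were higher. The gene overlaps AT1G77810.

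Both of the other junctions named by rank lay in non-coding genes. AT5G43403 (130 bases) had 9, 7 and 12 counts in Col and 1, 0 and 0 in prmt5 (log2 change -4.49, SE 0.88, edgeR adjusted p 0.00374, and 0.0552 in DESeq2). AT4G36648 (281 bases) had 30, 22 and 34 counts against 13, 10 and 10, or 0.572% ± 0.005 and 0.201% ± 0.038 of its bin (log2 change -1.52, SE 0.30, adjusted p 0.00471, and 0.0670 without prmt5 replicate 3). In each, every Col ratio was above every prmt5 ratio, as in 19 of the 20 junctions that fell. These 20 were chosen by p in the same comparison, which favours such a gap, so the count adds no support. Its share over all junctions tested was not computed.

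The 3 junctions that rose were all coding with GT-AG ends. LPP3 encodes a lipid phosphate phosphatase, and its 114-base stretch had 1, 0 and 0 counts in Col and 13, 5 and 22 in prmt5. The bin had 390 to 775 counts in Col and 636 to 1073 in prmt5, so the ratio went from 0.047% ± 0.081 to 1.44% ± 0.63 (log2 change 4.45, SE 0.88, edgeR adjusted p 0.00396). The call was lost without Col replicate 3 (0.0773), without prmt5 replicate 3 (0.0746) and in DESeq2 (0.0761). The stretch keeps the frame and covers 38 of 365 codons.

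ENODL2 encodes an early nodulin-like protein of the plasma membrane. Its 79-base stretch had 8, 3 and 9 counts in Col and 29, 19 and 27 in prmt5 in a bin with 8394 to 22877 counts. The ratio rose from 0.044% ± 0.007 to 0.142% ± 0.026, with all prmt5 libraries higher (log2 change 1.62, SE 0.36, edgeR adjusted p 0.0149). Without Col replicate 1, Col replicate 3, prmt5 replicate 1 and prmt5 replicate 2 in turn the adjusted p was 0.0726, 0.0920, 0.109 and 0.0544, and in DESeq2 it was 0.124.

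FRO7 encodes a ferric reductase of the chloroplast. Its 95-base stretch had 46, 26 and 52 counts in Col and 73, 50 and 70 in prmt5, and all prmt5 ratios were higher, at 5.01% ± 0.66 against 2.85% ± 0.14 (log2 change 0.80, SE 0.19, edgeR adjusted p 0.0274). The adjusted p was 0.0731, 0.184, 0.205 and 0.0978 without Col replicates 1 and 3 and prmt5 replicates 1 and 2, and 0.172 in DESeq2. Removal would place a stop at codon 497 of 748. FRO8, another ferric reductase gene of the family, held a junction of the same length that fell, singled out after its values were seen. It had 5, 4 and 5 counts in Col and 0, 1 and 0 in prmt5 (log2 change -4.29, SE 1.03, adjusted p 0.0282). FRO8 was the less stable of the pair: leaving out any library but prmt5 replicate 2 ended its call, with adjusted p between 0.0665 and 0.181.

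**Figure D4:**
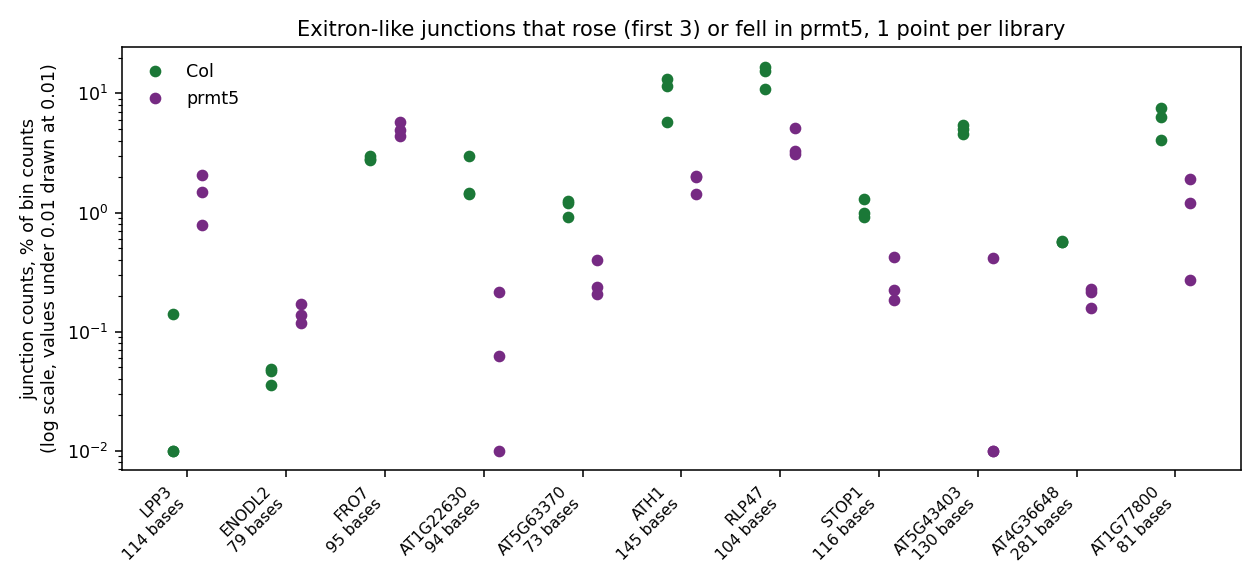
Junction counts as a percent of exon bin counts (y axis, log scale, values under 0.01 drawn at 0.01) in each Col (green) and prmt5 (purple) library for the 3 exitron-like junctions that rose and the 8 with the smallest p among those that fell. In all 11 the genotypes do not overlap, which their choice by p in this comparison favours. RLP47 is at 10.9% to 16.8% in Col and 3.10% to 5.12% in prmt5.

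The remaining 12 that passed, FRO8 among them, were looked at after their values were seen. AT1G63880, AT4G39680, AT3G04500 and PCN held coding stretches that fell, and AT4G14300 held one in its 3' untranslated region. Leaving out any 1 library ended the calls of AT3G04500 and PCN. Of the 12, 5 lay in 5' untranslated regions, with 1 each in AT3G59780, AT5G25560 and PERK10. The other 2 lay in VIP2, a gene for a protein that interacts with the Agrobacterium protein VirE2. The 500-base VIP2 stretch was the most counted, at 71, 33 and 86 in Col and 62, 52 and 86 in prmt5. Its bin had 112 to 337 counts in Col and 358 to 569 in prmt5, so the ratio fell from 25.9% ± 4.3 to 14.6% ± 0.5 (log2 change -0.78, SE 0.18, edgeR adjusted p 0.0190) while the adjusted p with library size was 0.640. Without Col replicate 3 or any 1 prmt5 library it was 0.0811 to 0.247. AGP31, for an arabinogalactan protein, held the single CT-AC call, on 8, 0 and 15 counts in Col and 0 in every prmt5 library. This junction has 11 bases repeated at its ends, and its joined flanks were found in 1 piece in the genome. Its counts are therefore uncertain, as described above. The adjusted p of the junction was 0.0336, was 0.0761 to 0.386 when any 1 library but Col replicate 2 was left out, and was 1.00 in DESeq2. The 3 other AGP31 junctions with the same end had 10, 9 and 26 counts against 8, 12 and 19 (156 bases), 7, 0 and 5 against 10, 9 and 16 (216 bases), and 0, 0 and 3 against 2, 2 and 5 (36 bases).

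The most counted exitron-like junctions were those of AT2G43150, whose protein belongs to the structural extensins of the cell wall. The 6 highest, all with CT-AC ends and 48 or 96 bases, lay between 17946220 and 17946413 on chromosome 2. The junction from 17946364 to 17946413 had 3393, 1788 and 3327 counts in Col and 2357, 1947 and 3993 in prmt5, or 6.09% ± 0.47 and 6.21% ± 0.16 of its bin. The junction from 17946268 to 17946317, shown above, had 3486, 1806 and 3110 against 2283, 1904 and 3825, or 6.02% ± 0.34 and 6.01% ± 0.11. All 6 had log2 changes between -0.07 and 0.05 with edgeR adjusted p of 0.979 to 0.998. Each removes whole units of the repeat, 16 or 32 codons of 213.

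Exitron-like junctions could also be confined to few libraries, in repeat genes and elsewhere. The HRGP1 junction shown above, 75 bases in a gene for a hydroxyproline-rich glycoprotein, had 0 counts in Col and 0, 91 and 157 in prmt5. A 72-base CT-AC junction of EXT4, an extensin gene, had 0, 0 and 48 counts in Col and 0 in every prmt5 library. A GC-AG junction in AT1G25175, which has no repeat at its ends, had 25 counts, all in prmt5 replicate 2. These 3 were picked after their values were seen, and replicates of a genotype differed in each.

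The coding GT-AG junctions with the highest ratios and a length divisible by 3 did not pass the test. DUR, a gene of the NAD(P)-binding Rossmann-fold superfamily, was the best counted of the 6 named by rank, with 42, 28 and 36 counts in Col and 39, 28 and 64 in prmt5 for a 72-base stretch of 24 codons. That was 33.2% ± 2.5 and 29.98% ± 3.22 of its bin (log2 change -0.13, SE 0.21, edgeR adjusted p 0.987). In AT1G56120, a leucine-rich repeat receptor kinase gene, a 129-base stretch of 43 codons had 30, 14 and 24 against 22, 17 and 16 counts (log2 change 0.06, adjusted p 0.997). ATM, the DNA damage kinase gene, had 12, 5 and 20 counts against 22, 16 and 27 for a 90-base stretch at 26.4% ± 1.2 and 31.2% ± 6.4 of the bin (log2 change 0.20, adjusted p 0.987), and overlaps AT3G48195. AT5G04680 (ankyrin repeats, 87 bases) and AT5G23700 (coiled coil, 93 bases) had 4 to 17 and 0 to 4 counts per library, with adjusted p of 0.902 and 0.997.

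GMI1, a gene induced by DNA damage, showed a bin and a junction that were both higher in prmt5. The 72-base junction had 2, 0 and 4 counts in Col and 26, 11 and 34 in prmt5, and the bin 29, 4 and 17 against 76, 63 and 119. The ratio of 10.1% ± 12.1 against 26.7% ± 8.5 did not pass (log2 change 1.20, SE 0.61, edgeR adjusted p 0.715). Against library size instead of the bin, the log2 change was 3.56 with an adjusted p of 3.04e-05. More transcript and more use of the junction are separated by the bin count, and the latter was not resolved here.

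The 4 coding GT-AG junctions of highest ratio with other lengths did not pass either. AT1G50730, of unknown function, had 66, 34 and 44 counts in Col and 49, 39 and 61 in prmt5 for 82 bases (30.1% ± 3.5 and 28.7% ± 0.8 of the bin, edgeR adjusted p 0.994). AT1G62920, for a proteasome maturation factor, had 36, 23 and 22 against 30, 15 and 38 for 112 bases (28.9% ± 6.7 and 30.8% ± 3.7, adjusted p 0.994). AT4G12740, for a base excision repair protein, and AT3G58430, for a MATH domain protein, had 11, 7 and 6 against 10, 1 and 8, and 9, 3 and 11 against 8, 4 and 5 (adjusted p 0.886 and 0.969). Removal would stop translation early in all 4, at codon 275 of 924 in AT1G50730 and at codon 106 of 261 in AT1G62920. These 2 stretches, which break the frame, stood near the ratio of the DUR stretch, which keeps it.

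Genes of splicing and of the circadian clock, both known to be affected in prmt5 mutants, held 4 exitron-like junctions. Over all 22493 genes with exon bins, 2.05% held at least 1. Of 19 SR protein and related splicing factor genes, all with exon bins, 1 held 2 of them: RSZ22a. Its 112-base stretch in the 3' untranslated region had 109, 48 and 102 counts in Col and 77, 43 and 63 in prmt5, or 11.9% ± 2.6 and 7.46% ± 1.28 of the bin, with all Col ratios higher (log2 change -0.69, SE 0.18, edgeR adjusted p 0.0630). It passed without Col replicate 2 (0.00842) or prmt5 replicate 1 (0.0396), with no minimum count (0.0189) and with the gene count as offset (0.0181). It did not pass without Col replicate 1 (0.480), Col replicate 3 (0.202), prmt5 replicate 2 (0.282) or prmt5 replicate 3 (0.423), in DESeq2 (0.303) or with library size and TMM factors (0.230). A 102-base stretch with the same end had 4, 1 and 5 against 0, 0 and 4 (adjusted p 0.886). Of 12 clock genes, 11 with exon bins, LHY and CCA1 held 1 each. LHY had 0, 1 and 7 counts against 1, 3 and 1 for 200 bases, and CCA1 5, 5 and 10 against 3, 3 and 0 for 92 bases, under 0.3% of bins of 1438 to 6766 counts. Neither passed (adjusted p 0.993 and 0.988). Of the 9 protein arginine methyltransferase genes 0 held one, a number too small to set against 2.05% of all genes. Of the 4 in these lists 0 passed in edgeR or DESeq2, against 1.14% of all junctions tested in edgeR. The longer RSZ22a stretch, 1 of the 4, had an unadjusted edgeR p under 0.05. So did 7.44% of all junctions tested and 151 of the 592 exitron-like junctions, and 4 are too few to set against these.

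The 5' splice sites were scored as the sum of log2 odds over 3 exon and 6 intron bases, with weights from 102053 annotated GT-AG junctions. The median score was 6.39 for GT-AG exitron-like junctions, 6.71 for other unannotated and 7.13 for annotated junctions. The 19 GT-AG junctions that fell had a median of 5.23, and the GT-AG junctions that did not pass 6.48. Sorted into 4 classes of 113 or 114 junctions by rising score, the median log2 change was -0.90, -0.79, -0.77 and -0.27, with 8, 4, 6 and 1 junctions that fell. The highest class, with scores from 7.98 to 12.1, thus had the smallest median change. This is a description across junctions, with no test. Over all junctions tested 0.964% fell, but neither calls nor changes were split there by score. A relation to the score thus cannot be called particular to exitron-like junctions. Of those shown above, FRO7 scored 8.78, STOP1 6.52, LPP3 6.08, ENODL2 5.32, AT1G77800 5.23, RLP47 4.83 and AT5G63370 4.10.

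**Figure D5:**
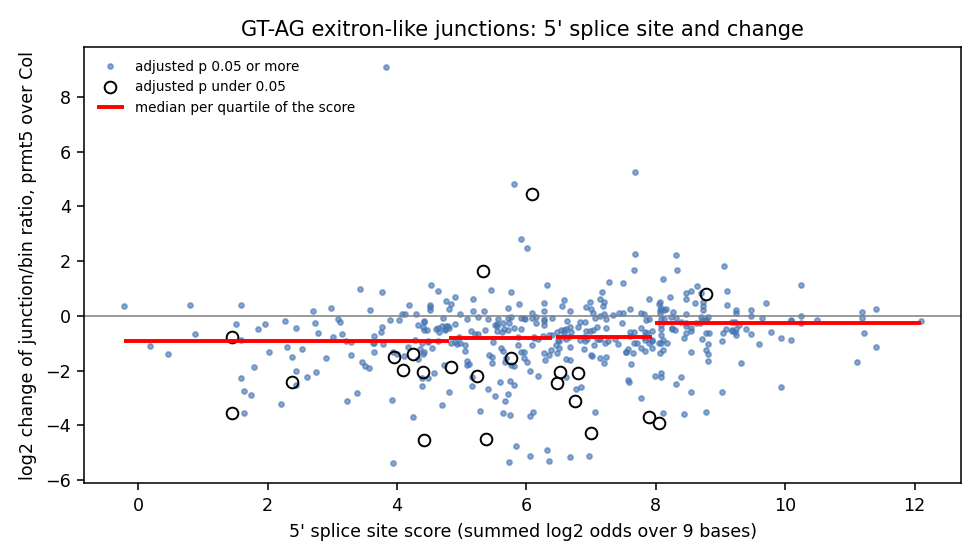
Log2 change of the ratio of junction to bin count (prmt5 over Col, y axis) against the 5' splice site score (x axis, summed log2 odds over 9 bases) for the 454 GT-AG exitron-like junctions, with black circles for those with adjusted p under 0.05 and red bars for the median in each of 4 score classes. The red bars lie at -0.90, -0.79 and -0.77 in the first 3 classes and at -0.27 in the last.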

How the data were processed

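Counts are the deposited raw counts per junction, exon bin and gene, whole numbers that the authors did not normalize. Per the submitters' processing notes STAR and TAIR10 were used. The counting program, the read length and the strandedness are named in no label, note or header. Coordinates are those of the files: 98.5% of 110931 annotated nuclear junctions had GT-AG ends in the TAIR10.1 reference, against 0 after a shift of 1 base. RefSeq of that assembly gave symbols for 458 of the 460 genes, positions and reading frames. The removed length is the number of bases between both ends.

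Junctions in genes with 12 or more counts over the 6 libraries were fitted with edgeR 4.0.16 (R 4.3.3; robust quasi-likelihood, genotype as the only term), with the log of the bin or gene count plus 0.5 as offset. SE is the absolute log2 change over the square root of F. DESeq2 1.42.0, other offsets, other minimum counts and each library left out were alternatives. Joined flanks were searched with BLAST+ 2.17.0. Named were, by rule, up to 8 junctions per direction with the smallest p, the 6 most counted, the coding GT-AG junctions with the highest ratios (6 and 4 by frame), all in 3 gene lists, and the shortest and longest. The junctions, lists and tests were chosen with earlier results of these data known. Replicate numbers come from the titles, and same-numbered libraries did not deviate together (r = -0.198, -0.105 and 0.0746), so no block was used. Pairs with different numbers had r from -0.163 to 0.239. Python 3.11.15, scipy 1.17.1 and pandas 2.3.3 computed the values. Reads carry no molecular identifiers, so low counts limit precision further.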

Additional observations from a re-analysis of the deposited data

How the results depend on the processing

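No filter on low counts, a minimum of 30 counts, the gene count as offset and the replicate block gave 32, 18, 24 and 19 exitron-like junctions past the threshold, 23, 18, 20 and 16 of them among the 23. Library size gave 71 with TMM and 71 with RLE factors (19 shared with each), DESeq2 8, and leaving out 1 library 9 to 26. Over all junctions tested, the first 4 settings passed 1531 of 177688, 1192 of 102768, 1275 of 111715 and 1008 of 111715. With library size 12051 (TMM) and 12060 (RLE) of 111715 passed, in DESeq2 777, and without 1 library 765 to 1467. The 71 thus stand beside far more calls over all junctions. Among the named junctions, 20 adjusted p-values crossed to 0.05 or more and 6 crossed below it. The replicate block ended 7 calls, those of FRO7 (0.0578) and FRO8 (0.0550) among them.

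Directions of named junctions that had not passed turned as follows, always with adjusted p over 0.05. With the gene count as offset the values were 0.999 (AT2G43150, 17946268 to 17946317), 0.997 (AT5G23700) and 0.995 (AT1G62920). With library size, TMM then RLE, they were 0.616 and 0.618 (AT5G23700), 0.413 and 0.418 (DUR), 0.782 and 0.779 (AT1G56120), 0.803 and 0.808 (AT1G50730), and 0.822 and 0.821 (LHY). Without 1 library, directions turned in the named AT2G43150 junctions other than 17946244 to 17946293. The ranges that follow cover every library left out in turn, whether or not the direction turned. Adjusted p of the AT2G43150 junctions that turned ran from 0.969, 0.933, 0.855, 0.663 and 0.926 up to 0.999978 in each. The ranges began at 0.991 (AT5G23700), 0.939 (AT1G56120), 0.933 (AT1G62920), 0.942 (AT1G50730), 0.911 (LHY) and 0.941 (CCA1) in the others, with the same top. The cause was not tested.

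The share of junction counts, 0.00112 percentage points lower in prmt5, was 0.00112 higher with a minimum of 30 counts and ran from -0.00501 to 0.00111 without 1 library. The pooled ratio of all, 0.0412 percentage points higher in prmt5, ran from -0.0315 to 0.0831 without 1 library. It was -0.00595 over every junction inside 1 exon bin, -0.0727 over GT-AG junctions, -0.476 as the median over junctions and -0.0542 without AT2G43150, an alternative chosen after seeing the data. AT2G43150 holds most of the counts. The coding GT-AG ratio with lengths divisible by 3, 0.00282 higher, ran from -0.0128 to 0.0259 without 1 library and was -0.00350 over every such junction with 1 or more counts. That with other lengths kept its direction in every alternative run. Paired by number, as a replicate block, the exact sign-flip p of the last was 0.25, the smallest that 3 pairs give. Depth limits most single junctions: the median count was 25 over the 6 libraries.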

Other observations

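Rare junctions inside 1 exon bin with CT-AC ends were counted beside the GT-AG junctions given above. The 1100 such CT-AC junctions with 1 to 11 counts summed to 24.7, 25.6 and 25.2 counts per 1000000 junction counts in Col and to 19.5, 19.4 and 17.8 in prmt5, and every Col library was higher. The 133 CT-AC junctions with 12 or more counts summed to 559, 537 and 483 such counts in Col and 499, 511 and 628 in prmt5, with groups that overlapped. Their pooled ratio to the bins was 3.25%, 3.22% and 3.21% in Col and 3.27%, 3.30% and 3.69% in prmt5, so every prmt5 library was higher. The part that reads from overlapping genes or repeats have in these sums was not tested.

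In AT1G20920, a gene for a P-loop nucleoside triphosphate hydrolase, 4 GT-AG exitron-like junctions lay in untranslated sequence, and 3 of them share an end. The 97-base junction had 11, 8 and 9 counts in Col and 1, 0 and 3 in prmt5, the 76-base junction 52, 34 and 57 against 31, 22 and 28, and the 371-base junction 14, 9 and 13 against 18, 8 and 19. None passed (edgeR adjusted p 0.0869, 0.250 and 0.926). SDG25, a histone methyltransferase gene, held 3 that share an end and remove 75, 78 and 84 bases, all divisible by 3. The 75-base junction had 26, 14 and 39 counts in Col and 53, 48 and 64 in prmt5 (adjusted p 0.981). Both genes were picked after their values were seen.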
